A study of Mus musculus with 18 samples.

Results

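The effect of losing Id3 was taken as the mean, over 3 sets of libraries, of the difference between Id3-KO and wild-type (WT) mouse CD4 T cells within each set. All 18 libraries of the series entered, 3 KO and 3 WT in each of the sets that the labels number 3, 5 and 6. Both genotypes were treated alike: naive CD4 T cells were activated with microbeads carrying antibodies to CD3 and CD28, in IMDM that held serum, the cytokines IL2 and IL12, and an IL4-blocking antibody, a medium that favours Th1 cells. KO cells lack Id3 as labelled, and the labels used here do not say how the allele was made or which strain or age the mice were. Nor do they say whether replicates were separate mice or the sets separate cultures. Therefore p-values measure the spread between these libraries, which may be technical. The numbers 24 (set 3) and 96 (sets 5 and 6) stand in the contrast names of the authors' deposited table, with no unit.

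Id3 encodes a helix-loop-helix protein without a DNA-binding region. It pairs with the E proteins E2A and HEB (genes Tcf3 and Tcf12) and keeps them off their DNA site, the E-box. In T cells, E proteins and their Id inhibitors set thresholds for development and for the choice between effector and memory fates. A gene whose level differs between KO and WT cells in every set is described here as changed in 1 direction; whether E proteins bind it was not measured.

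Every value below is on a log2 scale, on which a difference of 1 is a doubling. Levels are the deposited value aligned so that each library has the same median, 9.34 over all genes, and differences are KO minus WT relative to that median. Before alignment the KO median stood 0.03 below WT in set 3, 0.39 above in set 5, 0.41 above in set 6 and 0.26 above on average. A gene was called at an adjusted p under 0.05 (limma, Benjamini-Hochberg over 12547 genes). Depth per library was unknown. T cell markers were present in every library: Cd3e lay between 12.68 and 13.94 and Cd4 between 11.68 and 13.02. Libraries of KO cells in set 3 carried more RNA of B cell, dendritic cell and erythroid genes than the rest, KO replicate 1 most of all, and values without that library are given where a count rests on it.

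Averaged over the sets, 6620 of 12547 genes (52.8%) differed, 3246 higher (25.9%) and 3374 lower (26.9%) in KO cells. On the values as deposited the split was 6917 higher and 1047 lower. The average alone is a weak filter on constancy, since 2276 of the 6620 genes had the opposite sign in at least 1 set. The sets differed in how many genes they called: 1327 in set 3 (10.6%), 6218 in set 5 (49.6%) and 4669 in set 6 (37.2%). Genes called in the average and in each set, all in 1 direction, numbered 348 (2.77%), of which 260 rose (2.07%) and 88 fell (0.701%). A further 150 genes were called in every set with mixed directions. As deposited, 387 rose and 32 fell in all sets.

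By this rule rises outnumbered falls, and the count depended on set 3, which called the fewest genes. The balance moved with the rule: centring on the trimmed mean gave 234 rises and 194 falls, and an average past the test with the same sign in all sets gave 1854 and 2490. Of the 915 rises in set 3 (7.29% of all genes), 28.4% were rises in the other sets too, and of its 412 falls (3.28%) 21.4% were. Among all genes 24.9% rose in set 5 and 18.8% in set 6, and 24.7% and 18.5% fell. The share of all genes that rose or fell in both later sets was not counted, so the sharing is given as a description. Without KO replicate 1 of set 3 that set called 670 genes (493 higher and 177 lower, of which 34.7% and 25.4% were shared), and without WT replicate 1 of set 3 it called 842. KO and WT values did not overlap in any set for 326 of the 348 genes, against 899 of all genes (7.17%), 474 with higher (3.78%) and 425 with lower (3.39%) values in KO cells. A call in every set favours genes without overlap, so this gap is a description. Genes named by size or constancy were also picked for having no overlap, so for them it is no separate result. The median difference was 1.33 among the rises (1.18, 1.46 and 1.32 in sets 3, 5 and 6) and -0.68 among the falls, beside -0.00105 over all genes. An average of 1 or more was reached by 175 of the rises, and one of -1 or less by 24 of the falls. Without KO replicate 1 of set 3 the count was 216 (171 higher, 45 lower), and without WT replicate 1 of set 3 it was 230 (176 and 54). Without KO replicate 2 of set 3 the falls numbered 140. The call held whichever of the 18 libraries was left out for 142 genes, 113 higher and 29 lower. The genes nearest the threshold were Mt3 (largest adjusted p of the sets 0.0496) and Batf2 (0.0491) inside, and H2-Aa (0.050) and Phf6 (0.0501) outside.

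Id3 itself fell by 6.29 (SE 0.51; adjusted p = 1.40e-07), with all 9 KO libraries between 0.68 and 5.41 and all 9 WT libraries between 8.98 and 10.21. Differences in sets 3, 5 and 6 were -6.73, -6.01 and -6.12. Id2, a relative of Id3 with a like role, rose by 1.03 (SE 0.09; adjusted p = 2.74e-07), with 1.35, 0.92 and 0.84 in the 3 sets. No other of the 6 measured Id and E protein genes changed in all sets.

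**Figure D1:**
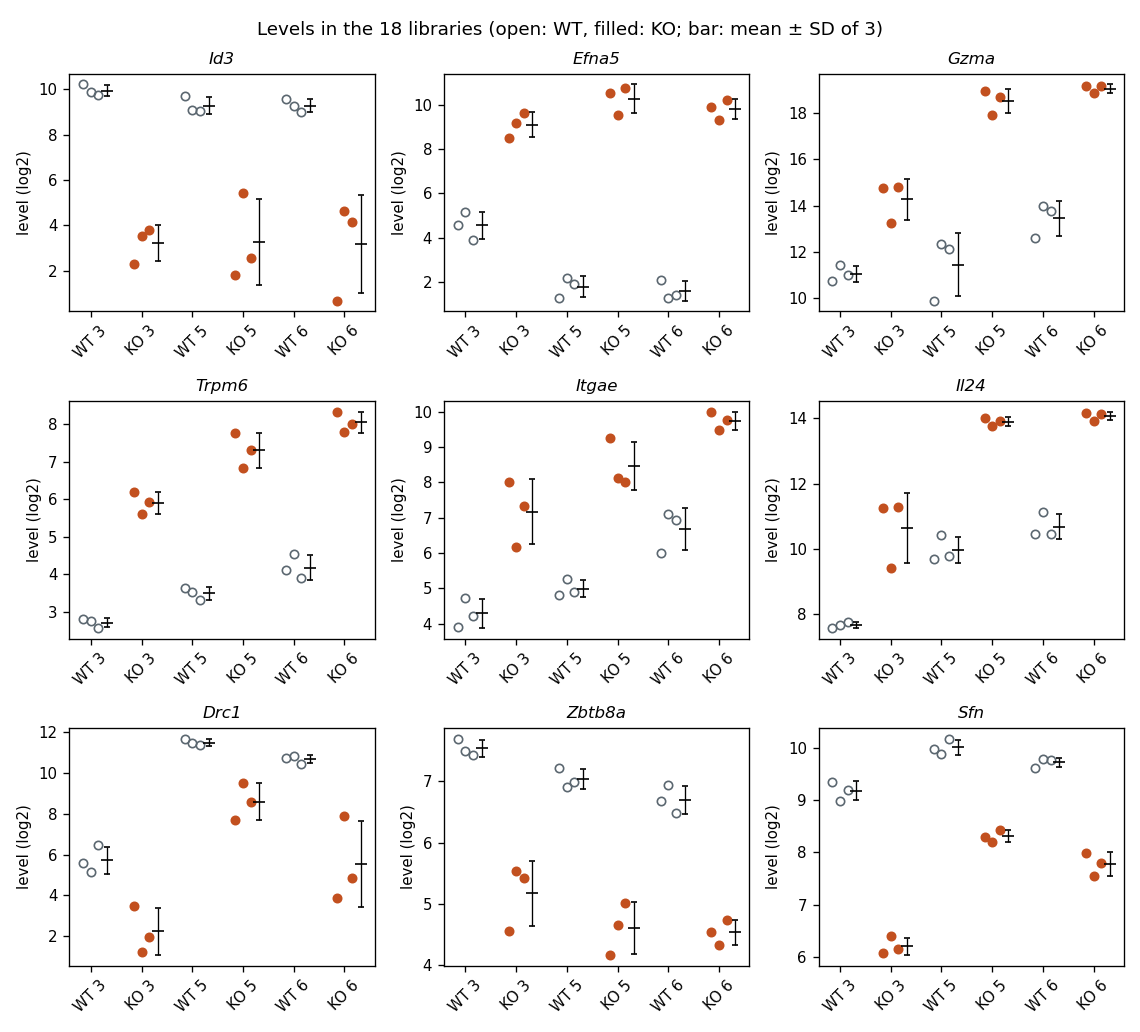
Levels (log2, aligned on the library median) of 9 genes in each library, by genotype and set; open points are WT libraries, filled points KO libraries, and bars the mean ± SD of 3 libraries. Id3, Drc1, Zbtb8a and Sfn are lower and Efna5, Gzma, Trpm6, Itgae and Il24 higher in every KO library than in any WT library of the same set.

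The largest rise of all was that of Efna5, a membrane-anchored ephrin that binds Eph receptors on neighbouring cells. In set 3 its KO libraries stood at 8.51, 9.16 and 9.62 and its WT libraries at 4.57, 5.16 and 3.91. In set 5 they stood at 10.53, 9.52 and 10.73 against 1.27, 2.19 and 1.91, and in set 6 at 9.90, 9.31 and 10.19 against 2.10, 1.28 and 1.41. WT cells of sets 5 and 6 were near the lowest value of the table, and KO cells were far above WT cells in all sets. The average difference was 7.07 (SE 0.23; adjusted p = 1.13e-11). Of 10 measured ephrin and Eph receptor genes Efna5 was the 1 changed in all sets.

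Gzma, which encodes the serine protease granzyme A of cytotoxic granules, rose by 5.30 (SE 0.32; adjusted p = 6.68e-09). Its KO libraries stood at 14.75, 13.26 and 14.81 in set 3, 18.95, 17.93 and 18.68 in set 5, and 19.17, 18.85 and 19.17 in set 6. WT libraries stood at 10.76, 11.44 and 10.98, then 9.89, 12.35 and 12.10, then 12.58, 14.00 and 13.76. The groups did not overlap in any set, and the mean level of both genotypes was highest in set 6. Among 24 measured cytotoxic molecules 4 rose in all sets and none fell, whichever library was left out, against 2.07% and 0.701% of all genes. Beside Gzma these were Cst7, the cystatin F that restrains granule proteases (1.94, SE 0.10), Srgn, the proteoglycan serglycin of the granule core (1.19, SE 0.11), and Tnfsf10, the death ligand TRAIL (0.84, SE 0.09), with adjusted p from 7.09e-10 to 1.89e-06. Averaged over sets, 13 of the 24 were higher and none lower (15 and none as deposited, 12 and 1 with quantile normalization), against 25.9% and 26.9% of all genes. The sets were not alike: 15 were higher and none lower in set 3 (7.29% and 3.28% of all genes). The counts were 12 and 2 in set 5 (24.9% and 24.7%) and 5 and 4 in set 6 (18.8% and 18.5%). Effects differed between sets for 14 of the 24 by the F test, against 32.7% of all genes. NK cell markers, 13 measured with 4 of them also in the cytotoxic list, summed to 12.33 to 12.89 in KO and 11.02 to 11.43 in WT libraries of set 3. The sums were 10.33 to 11.44 against 9.92 to 11.13 in set 5 and, the other way round, 10.59 to 11.62 against 12.11 to 12.22 in set 6. None of the 13 changed in all sets (1 rise at unadjusted p under 0.05 in limma), and their part in the cytotoxic rises was not tested.

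Cytokine genes of the Th2 programme, the programme that the culture medium works against, rose in all sets. Il4 stood at 11.98, 10.50 and 10.78 in KO and 6.91, 7.19 and 4.94 in WT libraries of set 3. In set 5 it stood at 11, 10.32 and 10.47 against 9.15, 8.96 and 8.85, and in set 6 at 11.54, 11.12 and 11.48 against 9.27, 9.98 and 9.59. KO libraries lay between 10.32 and 11.98 over all sets, while WT libraries of set 3 were below those of sets 5 and 6. The average difference of Il4 was 2.71 (SE 0.26; adjusted p = 8.13e-07). Il13, an effector cytokine of allergic tissue responses, rose by 3.46 (SE 0.21), and Il5, which drives eosinophils, by 2.93 (SE 0.21), with adjusted p of 8.21e-09 and 3.84e-08.

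Il24, a cytokine of the IL10 family, rose by 2.98, 3.95 and 3.40 in sets 3, 5 and 6. In set 3 KO libraries stood at 11.25, 9.40 and 11.28 and WT libraries at 7.57, 7.67 and 7.76. In set 5 they stood at 14.02, 13.76 and 13.93 against 9.69, 10.41 and 9.77, and in set 6 at 14.17, 13.93 and 14.14 against 10.46, 11.13 and 10.45. Groups did not overlap in any set, and the average difference was 3.44 (SE 0.21; adjusted p = 6.68e-09).

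Of 24 measured genes of the Th2 programme 15 rose in all sets and none fell, against 2.07% and 0.701% of all genes, and between 11 and 16 rose whichever library was left out. In the average 23 of the 24 rose (24 as deposited), with a median of 2.46, while 25.9% of all genes rose. Il31, an itch cytokine, rose by 3.08 (SE 0.30), but its call in all sets was lost on dropping KO replicate 1, KO replicate 3 or WT replicate 1 of set 5 (largest adjusted p up to 0.0824). Areg, a growth factor, stood 3.03 higher on average (SE 0.49), and its call in all sets was lost on dropping any 1 of 7 libraries: KO replicates 1 and 3 and WT replicates 1 and 2 of set 3, and KO replicate 1 and WT replicates 1 and 3 of set 5 (up to 0.193). Il6 was at the floor of the values in each WT library of set 5 and at 4.33, 3.71 and 3.34 in KO libraries there. The Th2 list is one the earlier results of these data had already shown to move, so its direction is no independent evidence.

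Transcription factors of that programme rose with it. Gata3, its master regulator, stood between 11.56 and 12.58 in all 9 KO libraries and between 10.01 and 11.15 in all 9 WT libraries. Its average rise was 1.63 (SE 0.07; adjusted p = 1.08e-10), made of 0.76, 2.14 and 1.99 in sets 3, 5 and 6. Maf, which activates the Il4 promoter, rose by 2.34 (SE 0.22), and Nfil3, a basic leucine zipper factor, by 1.29 (SE 0.12), with adjusted p of 6.51e-07 and 4.26e-07. Rnf128, the ubiquitin ligase GRAIL that is known from anergic T cells, rose by 3.83 (SE 0.19; adjusted p = 7.09e-10).

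Other lineage factors moved too. Of 38 measured lineage transcription factors 7 rose and 2 fell in all sets, and 4 rose without KO replicate 1, KO replicate 3 or WT replicate 1 of set 3. The shares among all genes were 2.07% and 0.701%. Epas1, the hypoxia-inducible factor HIF-2 alpha, rose by 4.72 (SE 0.26; adjusted p = 2.54e-09), with KO libraries at 8.87, 6.43 and 7.86 in set 3, 11.60, 11.06 and 11.48 in set 5, and 11.49, 11.24 and 11.76 in set 6. Its WT libraries lay between 4.44 and 5.97 in all sets, so the larger differences of sets 5 and 6 came with higher KO levels. Zbtb16, which encodes PLZF, the factor of innate-like T cells, rose by 3.12 (SE 0.32; adjusted p = 1.36e-06), with 4.05, 2.95 and 2.35 in the 3 sets. The 3 measured markers of gamma-delta and NKT cells, Zbtb16 among them, summed to 8.36 to 9.46 in KO and 6.77 to 7.44 in WT libraries of set 3. Their sums overlapped in set 5 (5.78 to 6.59 against 3.93 to 6.43) and in set 6 (6.59 to 7.06 against 6.14 to 7.05), and their part in the rise of Zbtb16 was not tested. Prdm1, the effector factor Blimp-1, rose by almost the same amount in each set (1.24, 1.16 and 1.18). Its call in all sets was lost on dropping KO replicate 1, KO replicate 3 or WT replicate 1 of set 3 (up to 0.0908). Ikzf1, the lymphoid factor Ikaros, stood 0.52 lower on average (SE 0.04; adjusted p = 1.97e-07), and its call in all sets was lost on dropping any of the 5 libraries of set 5 other than KO replicate 3 (up to 0.0992) and on the values as deposited.

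Factors of the AP-1 and BATF families, which act downstream of the T cell receptor, were listed together with IRF factors. That list counted 6 rises and no falls in all sets among 26 measured members, and 19 rises and 3 falls in the average (21 and 2 as deposited). Among all genes 2.07% rose and 0.701% fell in all sets, and 25.9% and 26.9% in the average. The count of rises in all sets in the AP-1, BATF and IRF list was 3 without KO replicate 1 of set 3. It was 2 without KO replicate 3 of set 3 and 3 without WT replicate 1 of set 3. Batf, a partner of IRF4, held in each of these: it rose by 1.96 (SE 0.10; adjusted p = 8.41e-10), with 0.83, 2.51 and 2.54 in the 3 sets. Il21, a cytokine that BATF-dependent cells make, rose by 3.42 (SE 0.26; adjusted p = 6.27e-08), and it stood at 12.71 to 13.32 in KO and 10.14 to 11.38 in WT libraries of set 3. Of 20 measured Th17 genes 3 rose in all sets, Batf and Il21 among them, and 15 rose and 2 fell in the average (17 and none as deposited; from 0 to 2 falls whichever library was left out).

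Of 25 measured NF-kB subunits and targets 5 rose and none fell in all sets, and 19 rose and 1 fell in the average (21 and none as deposited; from 0 to 3 falls whichever library was left out). The shares of all genes were 2.07% and 0.701% in all sets, and 25.9% and 26.9% in the average. Only 1 of the 5 rises in all sets kept its call without KO replicate 1 of set 3. Tnfaip3, the deubiquitinase A20 that feeds back on NF-kB, rose by 1.89 (SE 0.10; adjusted p = 1.30e-09), with KO libraries at 12.34, 11.66 and 12.31 against 10.72, 11 and 11.05 in set 3. The other 4 were Nfkbia, Nfkbie, Nfkb2 and Icam1, with average differences from 0.58 for Icam1 to 1.18 for Nfkbie; without KO replicate 1 of set 3 the largest adjusted p of a set was 0.0649 for Nfkbie and 0.0797 for Icam1. Nfkbia and Nfkb2 lost the call in further leave-outs: Nfkbia without KO replicate 3 or WT replicate 1 or 2 of set 3 (up to 0.165 over its 4 losses), and Nfkb2 without WT replicate 3 of set 3 (up to 0.161 over its 2).

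Of 27 measured genes of tissue homing and residence 7 rose in all sets and none fell, against 2.07% and 0.701% of all genes. Itgae, the integrin alpha E chain (CD103) that binds E-cadherin on epithelium, stood at 8.0, 6.18 and 7.32 in KO and 3.92, 4.73 and 4.23 in WT libraries of set 3. In set 5 it stood at 9.25, 8.14 and 8.02 against 4.81, 5.28 and 4.90, and in set 6 at 9.99, 9.48 and 9.77 against 6.01, 7.10 and 6.94. Groups did not overlap in any set. Its average rise was 3.14 (SE 0.24; adjusted p = 8.77e-08). Itgb3, an integrin beta chain for matrix proteins, rose by 1.39 (SE 0.12), and Cxcr4, the receptor of the chemokine CXCL12, by 1.36 (SE 0.18), with adjusted p of 1.97e-07 and 1.69e-05. Of the homing list 4 genes rose in all sets without KO replicate 1 or without KO replicate 3 of set 3. In the average 14 rose, 5 fell and 8 did not pass the test (18 rises and 5 falls as deposited), while 25.9% of all genes rose and 26.9% fell.

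Of 16 measured chemokine receptors 6 rose and none fell in all sets, against 2.07% and 0.701% of all genes. The count fell to 3 when KO or WT replicate 1 or 3 of set 3, KO replicate 1 or 2 of set 6, or WT replicate 3 of set 6 was left out. Ccr2, the receptor of inflammatory monocyte chemokines, held in each: it rose by 2.25 (SE 0.21; adjusted p = 4.92e-07), with 2.64, 2.43 and 1.69 in the 3 sets. Its level was higher in sets 5 and 6 than in set 3 in both genotypes, with WT libraries from 5.42 to 6.46 in set 3 and from 10.13 to 11.05 in set 6.

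Inhibitory receptors and ectoenzymes known from exhausted and regulatory T cells gave 4 rises and no falls in all sets among 19 measured members, and from 3 to 4 rises whichever library was left out. Shares of all genes were 2.07% and 0.701%. Tigit, a receptor for nectins, rose by 2.19 (SE 0.23), Havcr2, which encodes TIM-3, by 2.16 (SE 0.24), and Entpd1, the ATP-cleaving enzyme CD39, by 1.68 (SE 0.14), with adjusted p from 2.15e-07 to 2.45e-06. Havcr2 stood at 8.18, 7.19 and 7.51 in KO and 5.07, 5.93 and 5.16 in WT libraries of set 3. Pdcd1lg2, the PD-1 ligand PD-L2, stood 0.76 higher on average (SE 0.11), and its call in all sets was lost on dropping KO replicate 1 or WT replicate 2 of set 5 (up to 0.0924). In the average 9 members rose and 3 fell (10 and 2 as deposited), against 25.9% and 26.9% of all genes.

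**Figure D2:**
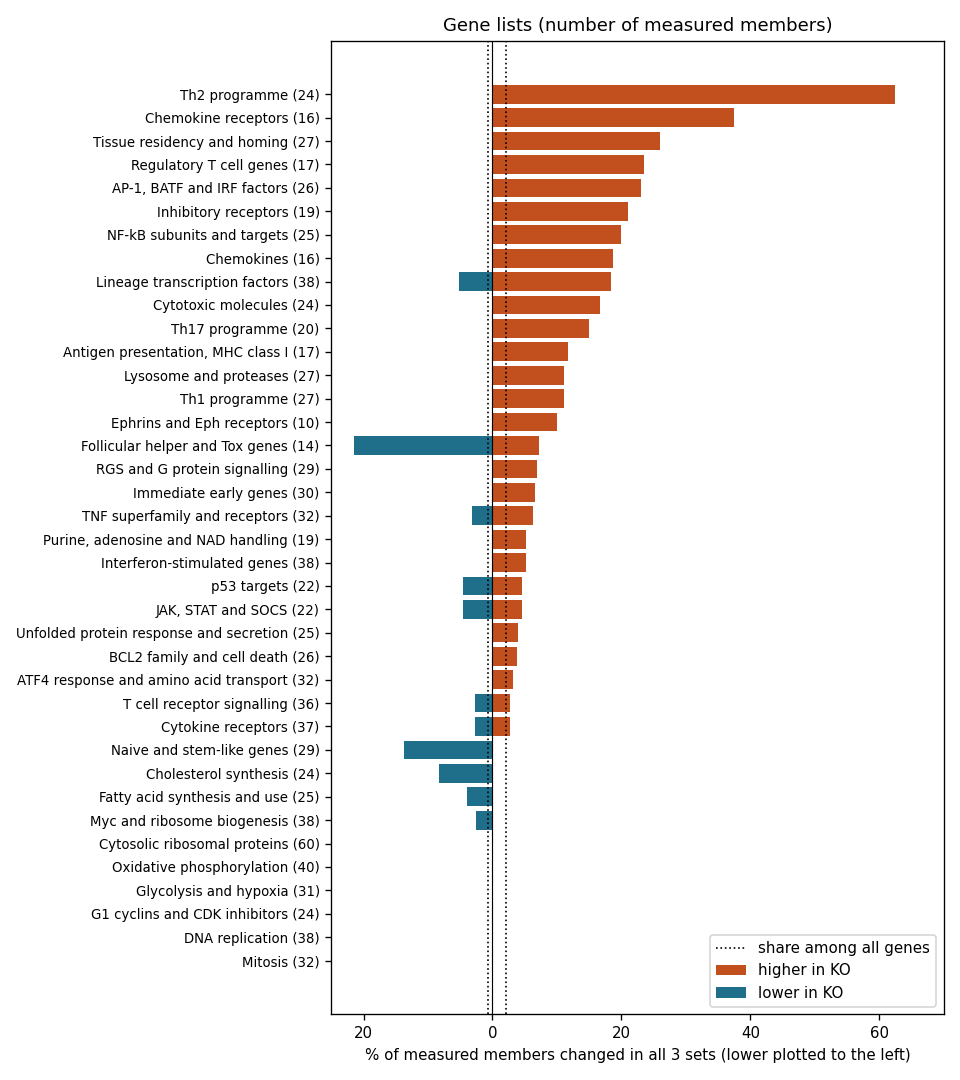
Share of the measured members of each gene list (number in brackets) that changed in all 3 sets, rises to the right and falls to the left, for lists with at least 10 measured members; dotted lines mark the shares among all genes, 2.07% and 0.701%. The Th2 programme has the largest share of rises, 15 of 24, and the lists of mitosis, DNA replication, G1 control, glycolysis, oxidative phosphorylation and ribosomal proteins have no member on either side. With such small shares among all genes, an empty row says little.

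The largest rises also held genes with no list in common. Trpm6, a magnesium channel fused to a kinase, stood at 6.19, 5.61 and 5.92 in KO and 2.80, 2.75 and 2.57 in WT libraries of set 3. In set 5 it stood at 7.77, 6.84 and 7.33 against 3.62, 3.54 and 3.31, and in set 6 at 8.34, 7.80 and 8.02 against 4.10, 4.55 and 3.89. Its average rise was 3.63 (SE 0.16; adjusted p = 1.82e-10), and its lowest KO library, at 5.61, lay above its highest WT library, at 4.55. Plcd1, a phospholipase C, rose by 3.91 (SE 0.27), Map2, a microtubule-associated protein of neurons, by 3.52 (SE 0.17), and Moxd1, a monooxygenase, by 3.22 (SE 0.32).

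Hc, which encodes complement component C5, rose by 3.37 (SE 0.40), and Gcnt2, a glycosyltransferase that branches I-antigen chains, by 2.99 (SE 0.24). Adjusted p of Plcd1, Map2, Moxd1, Hc and Gcnt2 ran from 7.09e-10 to 5.42e-06, and their calls in all sets held in each of the 18 leave-outs. Enpp2, which encodes the enzyme autotaxin, stood 3.68 higher (SE 0.63; adjusted p = 1.47e-04) with wide spread: its KO libraries were at 7.84, 5.0 and 7.17 in set 3, 8.86, 4.42 and 5.80 in set 5 and 10.10, 6.18 and 6.64 in set 6. The call of Enpp2 in all sets was lost in 9 leave-outs (up to 0.153): KO replicate 1 of any set, KO replicate 3 and each WT replicate of set 3, WT replicate 3 of set 5 and WT replicate 1 of set 6. Cyp11a1, the enzyme that starts steroid hormone synthesis from cholesterol, rose by 2.78 (SE 0.28; adjusted p = 9.26e-07); it was named after its values were seen.

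Of 29 measured genes of naive and stem-like T cells 4 fell and none rose in all sets, the deleted Id3 among the 4, and from 3 to 5 fell whichever library was left out. In the average 14 fell and 5 rose, but 9 fell and 9 rose as deposited, so the list's direction in the average rests on the alignment. Shares of all genes were 0.701% falls and 2.07% rises in all sets, and 26.9% falls and 25.9% rises in the average. Lef1, a factor of naive cells that works with beta-catenin, stood at 11.39, 12.01 and 11.73 in KO and 12.55, 12.45 and 12.72 in WT libraries of set 3. In set 5 it stood at 11.47, 11.51 and 11.82 against 12.27, 12.25 and 12.46, and in set 6 at 10.70, 10.76 and 10.90 against 11.79, 11.72 and 11.88. Lef1 fell by 0.87 (SE 0.07; adjusted p = 2.39e-07) without overlap in any set. Nsg2, a vesicle protein gene, fell by 1.44 (SE 0.15; adjusted p = 1.76e-06).

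Cd40lg and Sh2d1a, which act in T cell help to B cells, were lower in KO cells; Il21, also a helper cytokine, was among the rises. Sh2d1a, the adaptor SAP that signals from SLAM receptors, fell by 0.92 (SE 0.11; adjusted p = 4.47e-06), with almost equal differences of -1.0, -0.83 and -0.94; its call in all sets was lost on the values as deposited. Cd40lg, the ligand that licenses B cells, fell by 1.38 (SE 0.10; adjusted p = 4.43e-08), with KO libraries from 7.87 to 8.39 and WT libraries from 9.83 to 10.25 in set 5. Tox, a nuclear factor of CD4 lineage development and exhaustion, stood at 7.19, 7.90 and 6.54 in KO and 8.85, 8.49 and 7.97 in WT libraries of set 3, and 1.93 lower on average (SE 0.19; adjusted p = 7.70e-07). The call of Tox in all sets was lost on dropping KO replicate 1, KO replicate 3 or WT replicate 1 or 2 of set 3 (up to 0.115). In the follicular helper and Tox list 3 of 14 measured genes fell and 1 rose in all sets, and 5 fell and 5 rose in the average; 1 fell in all sets without KO replicate 1, WT replicate 1 or WT replicate 2 of set 3, and 1 as deposited. Among all genes 0.701% fell and 2.07% rose in all sets, and 26.9% and 25.9% in the average.

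Drc1, a subunit of the dynein regulatory complex of cilia, showed the largest fall after Id3. Its KO libraries were at 3.50, 1.23 and 1.97 in set 3, 7.73, 9.51 and 8.57 in set 5 and 3.86, 7.91 and 4.83 in set 6. WT libraries were at 5.58, 5.12 and 6.45, then 11.69, 11.47 and 11.36, then 10.76, 10.83 and 10.47. KO libraries of set 6 differed widely but stayed below every WT library of the set. Drc1 fell by 3.85 (SE 0.45; adjusted p = 4.43e-06). Acsl6, which activates long-chain fatty acids, fell by 2.92 (SE 0.18; adjusted p = 8.21e-09), from differences of -1.82, -4.74 and -2.21.

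Zbtb8a, a zinc finger gene, was lower in KO libraries by nearly the same amount in each set, -2.36, -2.42 and -2.16. Its KO libraries stood at 4.56, 5.53 and 5.43 in set 3, 4.17, 4.65 and 5.02 in set 5 and 4.55, 4.33 and 4.74 in set 6. Its WT libraries stood at 7.69, 7.5 and 7.43, then 7.22, 6.90 and 6.99, then 6.67, 6.94 and 6.49. Groups lay far apart in every set, and Zbtb8a fell by 2.31 (SE 0.15; adjusted p = 2.06e-08). Sfn, the 14-3-3 sigma adaptor that can halt the cell cycle, fell by 2.20 (SE 0.08; adjusted p = 2.05e-11), with KO libraries at 6.08, 6.4 and 6.16 and WT libraries at 9.34, 8.98 and 9.20 in set 3. Prss16, a thymus-specific serine protease, fell by 1.98 (SE 0.20), Akr1c12, an aldo-keto reductase, by 1.61 (SE 0.21), and Sntb1, a syntrophin, by 1.72 (SE 0.18), with adjusted p from 9.53e-07 to 9.85e-06. Akr1c12 belongs to a family of similar genes, so its value is uncertain where reads could be shared.

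Nrn1, which encodes the surface protein neuritin, stood 2.51 lower on average (SE 0.19; adjusted p = 5.87e-08), and its call in all sets was lost on dropping WT replicate 3 of set 3 (0.0501). Itih5, an extracellular matrix protein gene, stood 1.33 lower (SE 0.21; adjusted p = 7.78e-05), and its call in all sets was lost on dropping KO replicate 1 or WT replicate 3 of set 3 (up to 0.135).

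Hmgn2, which encodes a nucleosome-binding protein, was lower by -1.14, -1.35 and -1.24 in the 3 sets (average SE 0.05; adjusted p = 1.97e-10). Its KO libraries stood at 13.51, 13.22 and 13.49 in set 3, 13.79, 14.07 and 13.76 in set 5 and 13.74, 13.91 and 13.79 in set 6. WT libraries stood at 14.52, 14.54 and 14.57, then 15.30, 15.28 and 15.10, then 15.14, 15.08 and 14.92. This fall is uncertain, because the transcript of Gm10282, a gene on chromosome 8, is 99.3% identical to that of Hmgn2, on chromosome 4, over 1151 aligned bases with 8 differences (GENCODE M21), so reads of the pair can be shared out between them.

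Gm10282 rose by 3.93 (SE 0.08; adjusted p = 1.40e-14), the smallest adjusted p of the genes named here. It held 35.9 to 39.2% of the pair's summed value in KO libraries and 1.2 to 1.94% in WT libraries. The sum of both genes on the linear scale, an alternative chosen after seeing the data, was lower in KO cells by -0.58 (SE 0.06; adjusted p = 8.99e-07), with -0.45, -0.72 and -0.59 in the 3 sets. The split between the 2 genes thus differed between genotypes far more than their sum.

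**Figure D3:**
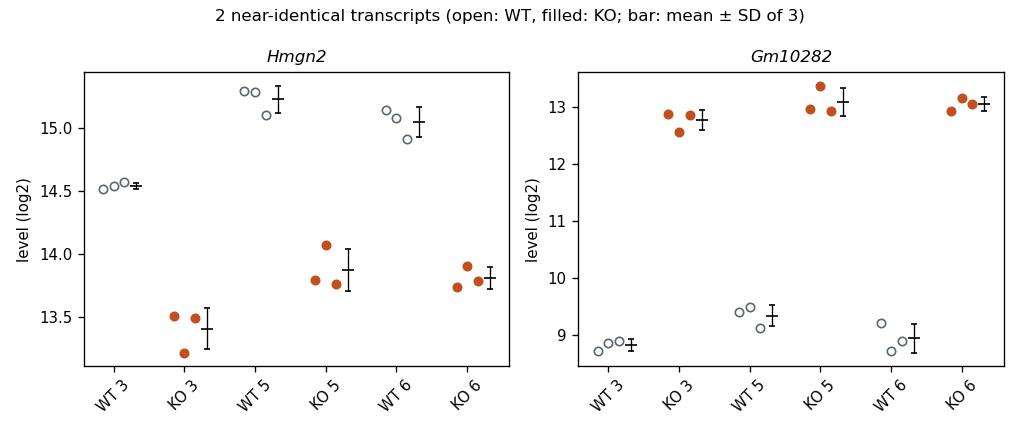
Levels (log2, aligned on the library median) of Hmgn2 and Gm10282 in each library by genotype and set; open points are WT, filled points KO, bars the mean ± SD of 3 libraries. KO libraries sit between 12.57 and 13.37 for Gm10282 and WT libraries between 8.72 and 9.49, while Hmgn2 is lower in KO than in WT libraries of every set.

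**Figure D4:**
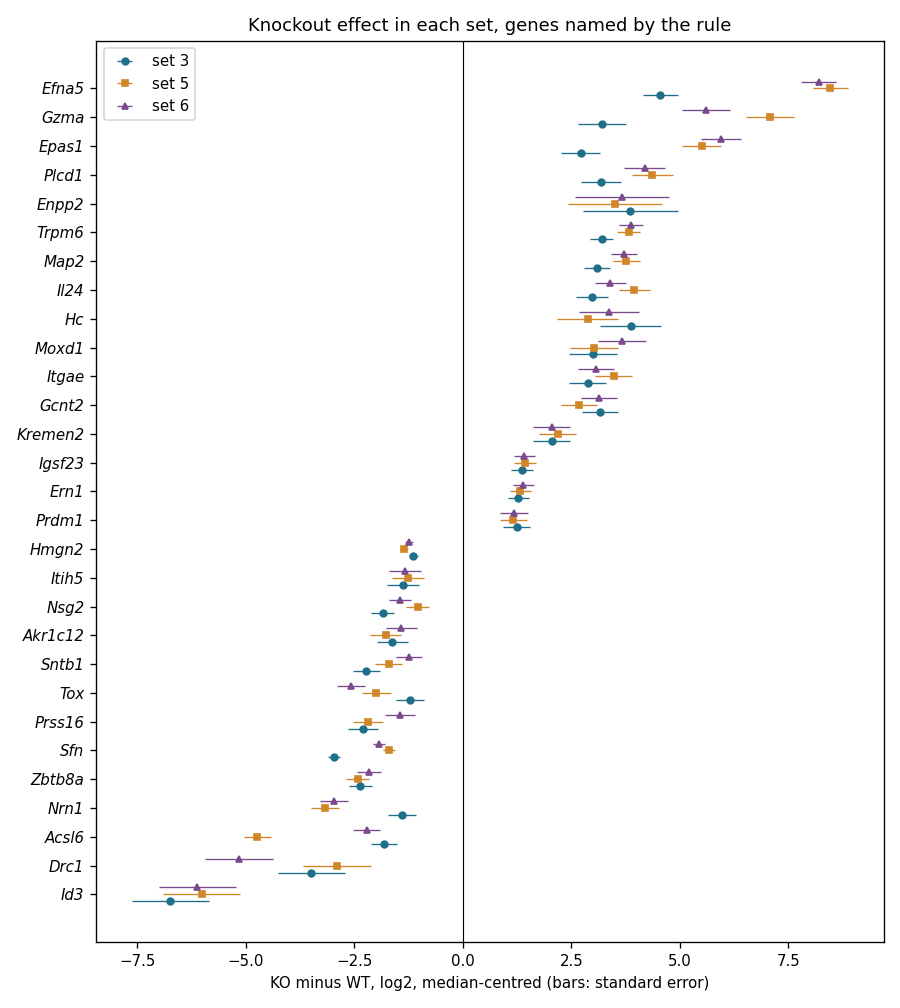
KO minus WT difference (log2, relative to the library median) in sets 3, 5 and 6 for Id3 and 28 other genes named by size or constancy; bars are standard errors. Points of Itih5, Prdm1, Igsf23, Ern1 and Kremen2 lie on top of each other, and those of Efna5, Epas1, Gzma, Acsl6 and Nrn1 part set 3 from a later set.

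Constancy of the size was tested gene by gene. Differences between the sets were called for 69 of the 348 genes (19.8%) by an F test of the KO effect over sets, against 4103 of all genes (32.7%). Requiring a call in every set favours genes with like effects, so that gap is a description. The 69 were 54 rises and 15 falls. A separate limma t test compared the mean effect of sets 5 and 6 with that of set 3 (adjusted p under 0.05). By that test the later effect was larger for 48 of the 260 rises and smaller for 14. Among the 88 falls it was more negative for 12 and less negative for 4. The larger later effects included Efna5 (4.55, 8.47 and 8.20 in sets 3, 5 and 6) and Rnf128 (1.86, 5.22 and 4.40). The smaller ones included Il4 (4.74, 1.61 and 1.77) and Il13 (4.99, 2.81 and 2.58).

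The genes with the smallest range over sets among those with an average of 1 or more included Itih5, Prdm1, Igsf23, Ern1 and Kremen2. Ern1, the endoplasmic reticulum stress sensor IRE1 alpha, differed by 1.28, 1.33 and 1.40 (average SE 0.14), while its WT level went from 6.73 to 7.07 in set 3 to between 7.47 and 7.81 in set 6. Kremen2, a receptor of Wnt inhibitors of the Dickkopf family, differed by 2.05, 2.18 and 2.05 (average SE 0.24). Igsf23, an immunoglobulin superfamily gene, differed by 1.36, 1.44 and 1.42 (average SE 0.14). Adjusted p of the average for Ern1, Kremen2 and Igsf23 ran from 1.32e-06 to 4.03e-06. Adjusted p of the F test lay from 0.962 to 0.979 for these 3. They were picked for a small range over sets, so high values of that test follow from the choice. Such values do not show that the effects are equal: the difference between sets 5 and 6 and set 3 had a 95% interval of -1.02 to 1.16 for Kremen2.

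**Figure D5:**
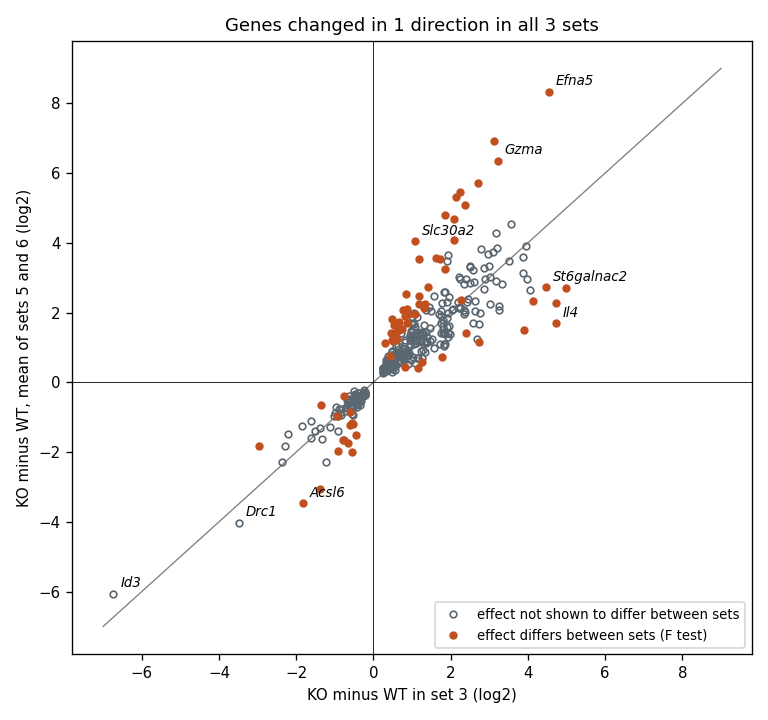
KO minus WT difference in set 3 (x axis) against the mean of sets 5 and 6 (y axis), log2, for the 348 genes changed in 1 direction in all 3 sets; the line marks equal differences and filled points are the 69 genes whose effects differed between sets. More filled points lie above the line among the rises (Efna5, Gzma) than below it (Il4, St6galnac2).

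Several large groups that moved in the average had few or no members changed in all sets. Among all genes 25.9% rose and 26.9% fell in the average, and 2.07% and 0.701% in all sets. At these shares a count of none in all sets says little for lists of this size, here and in the lists that follow. Of 40 measured oxidative phosphorylation genes 36 fell and 2 rose in the average, while 3 fell and 10 rose as deposited, and none changed in all sets (3 falls and no rises at unadjusted p under 0.05 in limma). None of them was called in set 3, where Ndufa9, a complex I subunit, differed by -0.10 (adjusted p = 0.496), against -0.76 in set 5 and -0.49 in set 6 (adjusted p = 4.77e-06 and 4.01e-04). Of 24 cholesterol synthesis genes 22 fell in the average (20 as deposited) and 2 in all sets, Hmgcs1 and Pmvk (9 falls at unadjusted p under 0.05 in limma). Neither of these 2 calls was firm: that of Hmgcs1 in all sets was lost in 8 leave-outs (up to 0.188) and that of Pmvk in 11 (up to 0.155), each without any 1 KO replicate of set 3 and without WT replicate 1 of set 3, among others. In 31 measured glycolysis and hypoxia genes 17 fell in the average (9 as deposited, with 1 rise) and none changed in all sets, also at unadjusted p under 0.05.

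Mitosis genes moved in opposite directions: of 32 measured, 27 rose in set 3, 20 fell in set 5, none was called in set 6, and 4 rose in the average (18 as deposited). That 4 was 14 without KO replicate 2 of set 3 and 2 without KO replicate 1 or 3 or WT replicate 1 of set 3 or KO replicate 2 of set 5. None of the 32 mitosis genes and none of 38 DNA replication genes changed in all sets in limma, also at unadjusted p under 0.05. The same held for 8 Gimap genes. Of 60 cytosolic ribosomal protein genes none changed in all sets (2 falls at unadjusted p), and 31 fell and 5 rose in the average, against 1 and 47 as deposited, so no direction is given for them.

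Markers of B cells, dendritic cells, granulocytes and erythroid cells differed between genotypes most widely in set 3, and some of them in later sets too. Macrophage and monocyte markers differed in every set, with sums furthest apart in set 5. Of 10 measured B cell markers 7 were higher in KO cells of set 3, none in sets 5 and 6 and none in all sets, also at unadjusted p under 0.05 (limma). Summed on the linear scale and put back on the log2 scale, the 10 markers stood at 11.88 in KO replicate 1 of set 3 and at 9.08 and 9.86 in the other KO replicates there, against 6.84 to 8.11 in WT libraries of the set. The sums ran from 6.88 to 7.54 in KO and from 5.98 to 6.21 in WT libraries of set 5 without overlap, and from 6.65 to 7.55 against 6.12 to 6.70 in set 6. Dendritic cell markers summed to 12.28 to 14.39 in KO and 11.10 to 11.47 in WT libraries of set 3, 11.26 to 11.55 against 10.85 to 11.06 in set 5, and 11.51 to 11.86 against 11.27 to 11.31 in set 6, so the groups did not overlap in any set. Of the 10 measured, 7 were called higher in set 3, 4 in set 5 and 1 in set 6. In all sets 1 of the 10, Cd74, was higher, and 3 were as deposited or at unadjusted p under 0.05 (limma). The count ran from 0 to 3 whichever library was left out. The call of Cd74 was lost on dropping KO replicate 1 or WT replicate 1 of set 3 (up to 0.0608).

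Mast cell and granulocyte markers were higher in 9 of 11 cases in set 3 and in none of 11 in all sets (none at unadjusted p), and 6 of the 11 were at the floor of the values in each KO library of set 5. Erythroid markers summed to 12.23 to 14.11 in KO and 9.60 to 10.22 in WT libraries of set 3. In set 5 the sums were 10.53 to 11.08 in KO and 11.48 to 11.72 in WT libraries, and in set 6 10.13 to 10.53 and 10.98 to 11.32. Macrophage and monocyte markers summed higher in KO than in WT libraries of each set, 7.75 to 8.38 against 6.63 to 7.22 in set 3, 9.32 to 9.71 against 7.83 to 8.16 in set 5 and 10.14 to 10.34 against 8.83 to 9.65 in set 6. Of the 8 measured Cd68 was the 1 called in all sets, lost on dropping KO replicate 3 or WT replicate 2 of set 3 (up to 0.0636). T cell markers summed to 15.58 to 15.78 in KO and 16.01 to 16.06 in WT libraries of set 3 without overlap, and 5 of the 9 measured were lower in KO cells there. In sets 5 and 6 they summed to 16.31 to 16.54 in both genotypes. The part of other cells in the genes changed in all sets was not tested beyond the counts without KO replicate 1 of set 3 given above. In cultures measured as a whole, more cells of a type and more RNA per cell cannot be told apart.

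E-box letters were looked for in promoters because Id3 acts on proteins that bind them. The motifs were CAGCTG and CAGGTG on both strands (so also CACCTG), in 300 bases of RefSeq sequence (GRCm38.p6) from 250 before to 50 after each annotated start. Among 32851 such promoters 32.9% held at least 1, of 12724 promoters of measured genes 30.4%, of 276 promoters of genes that rose in all sets 39.1%, and of 98 promoters of those that fell 31.6%. These shares are descriptions of letters, not of binding. Counted per gene, with at least 1 promoter holding a motif, the share was 34.1% of measured genes, 47.6% of the rises and 35.1% of the falls. Of the 30 genes named by size or constancy 21 had a promoter in the table and 12 of these held a motif. The 250 bases before the start are shown for 2 rises and 1 fall with several motifs, Gzma (chr13:113100982-113101231, minus strand), Trpm6 (chr19:18749480-18749729, plus strand) and Nsg2 (chr11:32000169-32000418, plus strand). They are written 5′ to 3′ on the gene's strand, with the motifs in capitals:
Gzma: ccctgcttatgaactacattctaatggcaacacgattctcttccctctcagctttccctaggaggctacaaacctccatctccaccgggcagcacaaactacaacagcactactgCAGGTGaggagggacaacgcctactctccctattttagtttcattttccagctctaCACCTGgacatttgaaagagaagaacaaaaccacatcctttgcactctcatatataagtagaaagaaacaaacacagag
Trpm6: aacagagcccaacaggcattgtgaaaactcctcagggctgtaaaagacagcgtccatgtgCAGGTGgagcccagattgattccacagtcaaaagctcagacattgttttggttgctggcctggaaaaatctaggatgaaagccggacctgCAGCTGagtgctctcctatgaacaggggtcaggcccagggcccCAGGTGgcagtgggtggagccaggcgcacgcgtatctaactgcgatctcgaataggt
Nsg2: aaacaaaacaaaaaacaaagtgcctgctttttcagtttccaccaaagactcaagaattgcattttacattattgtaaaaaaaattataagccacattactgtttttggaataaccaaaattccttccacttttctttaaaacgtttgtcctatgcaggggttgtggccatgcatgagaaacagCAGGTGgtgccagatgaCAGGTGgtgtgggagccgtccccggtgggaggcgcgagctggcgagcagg
In Gzma the motifs begin 135 and 79 bases before the start, in Trpm6 190, 100 and 57 bases before, and in Nsg2 67 and 50 bases before. Efna5, Map2, Hc, Zbtb8a and Id3, among the genes with the largest differences, held none of these letters in this window.

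Set beside the authors' deposited table, 150 genes had an adjusted p under 0.05 and a higher level in KO cells in each of its contrasts for sets 3, 5 and 6, and 7 a lower one. Fold changes there are differences of the deposited values, not aligned on the median, and its test score is 0 for genes with small fold changes. Of the 260 rises described here 128 were among them, and of the 88 falls 7 were.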

How the data were processed

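RNA-seq of 18 libraries of mouse CD4 T cells was analysed from 2 deposited tables. The authors' gene table holds log2 values of counts, per the file headers and value range; Salmon 1.9.0, edgeR, limma and GRCm39 are named in the submitters' processing notes with no role. How the values were normalized is not given in the sources. Sorted values were equal within groups for 97.0 to 98.4% of genes, so values had been equalised within groups, which narrows the spread, and depth cannot be recovered. The authors' second table gives, per the file headers, log2 fold changes, a test score and raw and adjusted p-values.

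Each library was centred on its median. limma 3.58.1 in R 4.3.3 fitted 6 group means (12 residual degrees of freedom, variance trend), with 1 KO-minus-WT contrast a set, their average and an F test of their differences, and Benjamini-Hochberg adjustment over 12547 genes. No gene was filtered out. On data simulated with independent noise the fit returned the differences put in. That simulation held neither values equalised within groups nor correlation between sets. It therefore checks the contrasts alone and says nothing of the p-values or counts here. A gene at the lowest tied value in all libraries of a group is given by levels, without a fold.

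Named were Id3; the 12 rises and 12 falls whose smallest set difference was largest, among genes changed in all sets without overlap and with a deposited mean of 5 or more in the higher group of every set; the 6 with the smallest range over sets (1 of them is not reported here); and up to 3 changed members per list and direction. Others (such as Il4, Cyp11a1 and glycan genes) were added after their values were seen. Members, lists and tests were chosen with earlier results of these data known. Histone genes served as an RNA quality list, but 6 of 28 were matched, so that check is void. Mitochondrially encoded genes, the other such list, had none of 13 changed in all sets, also at unadjusted p under 0.05 in limma. Only 2.77% of all genes did, so a count of none says little. None of the 13 was called in set 3, but 3 were lower in KO cells in set 5 and 6 in set 6. In the average 3 were lower (none lower and 5 higher as deposited). Their sums in set 6 ran from 20.74 to 20.90 in KO and from 21.07 to 21.17 in WT libraries. Gene order was read from RefSeq (GRCm38.p6; 98.5% of genes matched by symbol).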

Additional observations from a re-analysis of the deposited data

Results flagged for a closer look

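Of the 123 genes with named or tabulated values, 35 had KO effects that differed between the sets by an F test over all genes (limma, adjusted p from 5.11e-05 to 0.0471). For each, the effect in sets 5 and 6 minus that in set 3 is given on the log2 scale.

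Among genes that rose in all sets, the later effect was the larger by 3.78 for Efna5, 3.19 for Il1r2, a decoy receptor of IL1, 3.13 for Gzma, 3.01 for Epas1, 2.97 for the zinc transporter gene Slc30a2, 2.95 for Rnf128, 2.60 for Tnfrsf8, which encodes CD30, and 2.02 for Il21. It was the larger by 1.69 for Batf, 1.31 for Gata3, 1.12 for the kinase gene Jak2, 1.07 for Klf4, 1.06 for Tnfaip3, 0.97 for Nfkbia, 0.88 for Cst7, 0.87 for Nfkbie and 0.87 for the receptor gene P2ry10. For Maf the value was 0.10, since its effect was largest in set 5 (3.28) and smallest in set 6 (1.46). Of the genes with no leave-out given elsewhere, the call in all sets was lost on dropping 1 of 8 libraries for Il1r2 (KO replicates 1 and 3 and each WT replicate of set 3, and KO replicate 3 and WT replicates 2 and 3 of set 6; up to 0.193) and 1 of 8 for Klf4 (each library of set 3, and KO replicate 3 and WT replicate 2 of set 6; up to 0.140). It was lost on dropping 1 of 5 for Tnfrsf8 (KO replicates 1 and 3 and each WT replicate of set 3; up to 0.151), 1 of 4 for Jak2 (KO and WT replicates 1 and 3 of set 3; up to 0.0985) and 1 of 4 for P2ry10 (KO replicate 3 and each WT replicate of set 3; up to 0.125).

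The difference was -3.05 for Il4, -2.45 for Il31, -2.30 for Il13, -1.81 for Il5, -1.74 for the sialyltransferase gene St6galnac2 and -1.60 for Entpd1, all of which were higher in KO cells in every set.

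Among genes lower in KO cells the difference was -1.68 for Nrn1, -1.66 for Acsl6, -1.46 for Hmgcs1, -1.10 for the kinase gene Pim2, -1.06 for Pmvk, -0.87 for Cd40lg, -0.61 for the phosphatase gene Ptpn6 and -0.52 for Ndufa9, so the later fall was the deeper on average. It was -0.26 for Clic4, whose fall was deepest in set 5 (-1.09) and like in sets 3 and 6 (-0.60 and -0.64). The call in all sets was lost on dropping KO or WT replicate 1 or WT replicate 3 of set 3 for Pim2 (up to 0.125) and KO replicates 1 and 3 and WT replicates 1 and 2 of set 3 (1 at a time) for Ptpn6 (up to 0.105). The difference was 0.38 for Ikzf1 and 1.15 for Sfn, whose falls were deepest in set 3.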

How the results depend on the processing

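For single genes, 4281 of 4283 average differences under an alternative kept their direction and their side of the threshold, over 123 genes. Mdm2 (0.27) and Mafg (0.34) missed it when tested against a minimum fold of 1.2. Of these genes 122 were called in all sets, which includes a call in the average, so this stability follows largely from the choice. Their call in all sets was less stable: 63 kept it whichever library was left out, and 59 lost it in at least 1 leave-out. Counts moved more. As deposited, 6917 genes were higher and 1047 lower in the average, 32 fell in all sets, 7336 were called in set 6, and effects differed between sets for 6509. Centring on the trimmed mean gave 234 rises and 194 falls in all sets and library weights 146. A minimum fold of 1.2 left 2126 genes in the average (1230 higher, 896 lower), 118 in all sets (101 and 17), and 513, 3046 and 1763 in sets 3, 5 and 6. A log2 difference of 1 or more left 960 (695 and 265), 145 (131 and 14), and 615, 1590 and 1156. At an adjusted p under 0.01, 150 genes changed in all sets (119 and 31), 627 in set 3 and 2984 in set 6, and 2257 differed between sets. From sets 3 and 6 alone the average gave 3958 (1977 and 1981). By no overlap in any set 899 genes counted (474 and 425), and by an average past the test with 1 sign 4344 (1854 and 2490). Sets 5 and 6 tested as 1, chosen after seeing the data, gave 526 with 138 falls. The cause of these moves was not tested, except that the stricter thresholds and the looser rules call fewer or more genes by construction.

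Leaving out 1 library at a time gave 216 to 470 genes in all sets (171 to 330 higher, 45 to 140 lower), 6141 to 6662 in the average (3009 to 3271 higher, 3132 to 3396 lower), 670 to 1810 in set 3, 5119 to 6366 in set 5, 3516 to 4810 in set 6 and 3324 to 4395 differing between sets. Replicate numbers were checked for pairing: KO and WT libraries of 1 set and number correlated at -0.08 to 0.18, and 3 of 9 KO libraries correlated best with their own number, so KO and WT share only a number. Within a genotype, libraries with the same number in sets 5 and 6 correlated at 0.222 to 0.341 (KO) and 0.116 to 0.156 (WT), and those with other numbers at -0.255 to -0.0343, so these sets may not be independent. Pairs of the same genotype and number in set 3 and a later set, 12 in all, correlated at 0.014 to 0.176. Set 3 may thus not be independent of the later sets either. With same-number libraries of sets 5 and 6 as 1 block (estimated correlation 0.452, chosen after seeing the data), 5725 genes were called in the average and 358 in all sets (268 and 90). That block did not join set 3 to the later sets. Taking the number itself as block, 431 genes changed in all sets (305 and 126), and with a block of set by number 342. Depth is unknown, so no detection limit can be given.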

Other observations

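Genes of glycan synthesis were among those changed in all sets; they were picked after their values were seen, with no test. St6galnac2, a sialyltransferase of O-glycans, rose by 3.31 (SE 0.16), with KO libraries at 7.01, 6.77 and 6.77 and WT libraries at 2.12, 2.28 and 2.75 in set 3. B4galt5, a galactosyltransferase, rose by 0.69 (SE 0.07). St6galnac1, a relative of St6galnac2, was at the floor of the values in each WT library of set 5 and at 5.69, 5.46 and 4.83 in KO libraries there. Cmah, which makes N-glycolylneuraminic acid, differed by -1.53 (SE 0.17), St8sia1, which makes ganglioside GD3, differed by -0.80 (SE 0.12), and Galnt7, which extends O-glycans, fell by 0.67 (SE 0.05). Adjusted p ran from 5.68e-10 to 5.02e-05 for St6galnac2, B4galt5, Cmah, St8sia1 and Galnt7. On the values as deposited Cmah and St8sia1 lost the call in all sets. The call of Cmah in all sets was lost on dropping KO replicate 1 of set 5 (0.0576), and that of St8sia1 without KO replicate 1, KO replicate 3 or WT replicate 3 of set 5 or KO replicate 1 of set 6 (up to 0.0812).

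Genes of antigen loading on MHC class II stood higher in KO cells, again picked after their values were seen. H2-DMb1 differed by 1.83 (SE 0.21) and H2-DMb2 by 1.86 (SE 0.21), with adjusted p of 4.14e-06 and 3.54e-06. They are neighbouring copies, so the split between them is uncertain. The call of H2-DMb1 in all sets was lost on dropping KO replicate 1 or 3 or any 1 WT replicate of set 3 (up to 0.160), and that of H2-DMb2 without KO replicate 1, KO replicate 3 or WT replicate 1 of set 6 (up to 0.112). Cd74, the class II invariant chain, differed by 1.92 (SE 0.21), and it stood highest in KO replicate 1 of set 3, at 13.21. Dendritic and B cell markers were also highest in that library, and their part here was not tested.

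Genes near Id3 on chromosome 4 were looked at after the values of Hmgn2 and Sfn were seen, in the gene order of RefSeq, whose assembly differs from the authors'. Of the 50 measured genes just before Id3, 6 changed in all sets (2 higher, 4 lower; 12%), and of the 50 just after it none. With 25 genes a side the counts were 2 before and none after, and with 100 a side 7 (7.0%) and 1 (1.0%). On the rest of the chromosome, taken as all genes more than 50 places from Id3, 20 of 648 did (3.09%). That rest overlaps the windows of 100 a side. The 6 were Sfn, Hmgn2, Ubxn11, Slc30a2, Clic4 and Pnrc2, from 48 to 9 places before Id3, and Wdtc1 lay 53 places before. Wdtc1 stood at 10.00, 9.95 and 10.23 in KO and 8.01, 8.05 and 8.26 in WT libraries of set 3, and rose by 1.73 (SE 0.06; adjusted p = 2.05e-11). Ubxn11 rose by 1.66 (SE 0.11), and Clic4 and Pnrc2 fell by 0.78 (SE 0.05) and 0.38 (SE 0.04), but their calls in all sets were lost on the values as deposited. Slc30a2 differed by 3.05 (SE 0.17), and its call in all sets was lost on dropping KO replicate 1, KO replicate 3 or WT replicate 1 of set 3 (up to 0.130). Zbtb8a lies on the same chromosome, 106 places before Id3. Just beyond it Zbtb8os, Rnf19b and Azin2, 107, 112 and 114 places before, rose in all sets (0.36, 1.44 and 3.01 on average). These genes lie outside the windows and are counted in the rest of the chromosome. The labels used here do not give the strain of the knockout or its controls, and what these neighbours share was not tested.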
